A study of Mus musculus with 12 samples.

Results

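Among the leukocytes of B16-F10 tumours, the authors labelled 167 of 45477 cells as CD4+ T cells, and these are all the cells described here, whichever deposited cluster they lay in. The label met little support in the measurements of the 2 co-receptors. A Cd4 transcript was counted in 3 of the 167 cells, and the CD4 antibody tag lay below the highest isotype control tag in the summed cells of all 6 mice. The CD8a tag lay 12.4 to 48.4 times above that control in the same sums. A CD8a or CD8b tag lay above all 7 isotype controls in 151 cells, a rule that 54.6% of neutrophils also met. In deposited cluster 6, which held 92 of the 167 cells, 88.0% of the 92 and 79.6% of cells labelled NK cells met it. The 167 cells are called CD4-labelled cells below, after their label. Among them, 3 single cells with a CD4 tag above both CD8 tags are described apart.

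The tumours were grown from B16-F10, a transplantable melanoma line, in the skin of B6.129S7-Rag1tm1Mom/J mice, which lack the recombinase Rag1. All hosts then received Pmel Thy1.1 CD8+ T cells, which carry a transgenic receptor against the melanocyte protein gp100 and, of the CD90 alleles, Thy1.1. In the 3 control mice the cells had been kept in vitro with vehicle. In the 3 CAL-101 mice the cells had been exposed to CAL-101, also called idelalisib, which blocks the delta form of phosphoinositide 3-kinase. Live CD45.2+ cells of the tumour were sorted, stained with barcoded antibodies and sequenced as single cells, 1 library per mouse. The labels give neither the age of the mice nor whether the injected cells came from 1 donor. The libraries held 6152 to 9147 cells, 75716841 to 97933109 RNA UMIs (unique molecular identifiers, counted molecules) and 12748632 to 18237209 antibody tags. Of the cell barcodes, 249 were found in more than 1 library. These included the barcodes of 2 CD4-labelled cells, and no barcode was CD4-labelled in more than 1 library.

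CD4 and CD8 are the co-receptors that set which class of MHC molecule a T cell receptor reads. CD4 marks helper and regulatory T cells, whose fate is set by the factor ThPOK (Zbtb7b), and CD8, a pair of alpha and beta chains, marks cytotoxic cells, whose fate is set by Runx3. A Rag1-deficient mouse cannot rearrange receptor genes and so makes no T or B cells, while its NK cells, innate lymphoid cells and myeloid cells remain. Cells of the myeloid and dendritic lineages can also carry CD4.

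The protein readout rests on short DNA barcodes attached to the antibodies. The panel had 102 barcodes of 15 bases, all different, 7 of them on isotype controls, antibodies without a target in the mouse. The barcodes that the results below turn on were those of the co-receptors, of CD90.2 (the Thy1.2 allele of the hosts) and of the 2 isotype controls with the highest mean share of tags in CD4-labelled cells. They are given from 5′ to 3′ in capitals, which mark the whole counted barcode.
CD4: AACAAGACCCTTGAG
CD8a: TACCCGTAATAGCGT
CD8b: TTCCCTCTATGGAGC
CD90.2: CCGATCAGCCGTTTA
Isotype_MOPC.173: CTCCTACCTAAACTG
Isotype_RTK2071: ATCAGATGCCCTCAT

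In the GRCm38.p6 assembly, RefSeq places Cd4 at chr6:124864693-124888247, and Cd8a at chr6:71373427-71379171 beside Cd8b1 at chr6:71322788-71337492. All 3 are protein-coding genes on chromosome 6. The same chromosome holds the receptor beta segments used below, the variable segment Trbv14 at chr6:41135167-41135616 and the constant region Trbc2 at chr6:41546730-41548181.

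The CD4-labelled cells were shallow and rich in mitochondrial RNA. Their median was 1078 RNA UMIs, with 22.0% from mitochondrially encoded genes, and 1126 tags. Cells labelled only as T cells (T-labelled, 32188 cells) had medians of 9470 UMIs and 4.11%, and cells labelled CD8+ T cells (CD8-labelled, 506 cells) had 1021 UMIs and 27.6%. Among the 32861 cells with any of these labels, called the T class below, 6.58% of those under 1000 UMIs were CD4-labelled (79 of 1200 cells). The share was 1.86% from 1000 to under 2000 UMIs, 0.393% from there to under 5000 and 0.0332% at 5000 or more (7 of 21095). The CD8 label followed the same steps, at 20.3%, 6.07%, 1.104% and 0.0616%.

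Of the 167 cells, 92 (55.1%) lay in cluster 6 of the authors' clustering and 57 (34.1%) in cluster 1. The others lay in clusters 4 (8 cells), 12 (5 cells), 5 (4 cells) and 9 (1 cell). In cluster 6 the CD4-labelled cells had a median of 770 UMIs and 36.5% mitochondrial RNA, and in cluster 1 they had 1838 UMIs and 18.04%. The tags were uneven: 14 cells with over 5000 tags each held 45.0% of all tags of the CD4-labelled cells and had a median of 61.9% mitochondrial RNA. The sources used here do not give how the authors assigned the labels. RNA differences between labels are therefore given as a description with no test, and the tag tests stand beside the same reservation.

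Cd4 RNA was counted once in each of 3 CD4-labelled cells (1.80%, exact binomial 95% interval 0.372 to 5.16%), 1 cell each in control mouse 2, CAL-101 mouse 2 and CAL-101 mouse 3. The other 3 mice had no Cd4 UMI in these cells. The intervals given here and below cover counting error only. The T-labelled cells held 205 Cd4 UMIs in 124 cells (0.385%), at a far higher depth. As a level in CPM (the UMIs of a gene over all RNA UMIs of the cells, on the usual CPM scale), Cd4 stood at 11.0 in the CD4-labelled cells summed over mice and 0.487 in the T-labelled cells, a ratio of 22.6 with a counting interval of 4.63 to 67.1. The ratio to the CD8-labelled cells, which held 1 Cd4 UMI, was 8.43 with an interval of 0.677 to 443.

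With every cell thinned to 1600 UMIs, 1 of 57 CD4-labelled cells had a Cd4 UMI (1.75%; mean over mice 1.85% ± 4.54 SD, n = 6). This share is that of a single molecule and no order was read from it. At the same depth the share was 0.0899% in T-labelled cells, with 27 of 30047 cells, and 0.0181% in NK cells, with 2 of 11022 cells. Thinning left out 110 CD4-labelled, 2141 T-labelled and 364 CD8-labelled cells. Neutrophils, which should lack Cd4 and had a median of 3175.5 UMIs before thinning, had none in 400 thinned cells, which allows a share of up to 0.75%.

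The label and Cd4 detection therefore met in few cells. Of the 159 cells of the series with a Cd4 UMI, 3 were CD4-labelled (1.89%), and 124 were T-labelled (78.0%). Of all 45477 cells, 0.367% were CD4-labelled, 70.8% T-labelled and 25.7% labelled NK cells. Of the 49 cells with at least 2 Cd4 UMIs, none was CD4-labelled, a label of few and shallow cells. In 368 cells the CD4 tag lay above every isotype control and above both CD8 tags. Of these, 3 were CD4-labelled (0.815%) and 64 T-labelled (17.4%), while 277 were labelled NK cells (75.3%). This rule also sorts cells by their CD8 tags. Without the CD8 condition, the CD4 tag lay above every isotype control in similar shares. They were 5.99% of CD4-labelled, 7.82% of T-labelled and 7.26% of NK cells. Zbtb7b and Foxp3, the factor of regulatory T cells on the X chromosome, were counted once each, and Cd40lg, a helper cell ligand, was not counted in any of the 167 cells. This allows a share of up to 1.80% of cells with a UMI and, at this depth, sets no limit on the cells that express it. Summed over 9 genes, the CD4 lineage list stood at 681 ± 368 CPM (SD over 6 mice), against 593 ± 300 in T-labelled and 721 ± 364 in CD8-labelled cells. It ranged from 268 to 1243 in CD4-labelled cells, from 318 to 1025 in T-labelled cells and from 336 to 1387 in CD8-labelled cells, and was highest in CAL-101 mouse 1 under all 3 labels. Most of the sum was Tox, a factor that exhausted CD8 T cells also express, at 419 ± 286, 436 ± 305 and 557 ± 366 CPM, so the sum does not measure Cd4 itself.

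The receptor beta chain RNA of the CD4-labelled cells was mostly Trbv14. The Pmel receptor uses a beta chain built from Trbv14. Of the 37 beta variable-segment UMIs in CD4-labelled cells, 34 were Trbv14 (91.9%, exact 95% interval 78.1 to 98.3%), 2 were Trbv13-1 and 1 was Trbv20. The share was 94.5% in T-labelled and 96.1% in CD8-labelled cells. Neutrophils, with 18 such UMIs, and NK cells, with 735, had shares of 88.9% and 90.6%, so that the share does not separate the T cell labels from them. By mouse, Trbv14 stood at 176, 115 and 95.3 CPM in control mice 1 to 3, and at 105, 147 and 110 CPM in CAL-101 mice 1 to 3. They lay on both sides of the T-labelled mean of 128 ± 13.7 CPM and spread more widely, each resting on 1 to 10 UMIs. Summed over mice, the level was 12.1 times that of neutrophils (counting interval 6.49 to 23.4) and 0.971 times that of T-labelled cells (0.672 to 1.36). Trbv14 was counted in 30 CD4-labelled cells, and 28 of them had a CD8 tag above every isotype control. Cd3e, Trac or Trbc2, parts of the receptor complex, were counted in 162 of the 167 cells, of which Cd3e was in 40 cells and Trac in 40. Trbc2 alone is a weak mark here: with cells thinned to 1600 UMIs it was found in 98.2% of CD4-labelled cells and in 77.8% of neutrophils.

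Cd8a RNA was counted at a low level. The CD4-labelled cells held 31 Cd8a UMIs in 20 cells (12.0%) and 33 Cd8b1 UMIs in 29 cells (17.4%), and 40 cells had at least 1 of either. Cd8a stood at 70.4, 76.5 and 95.3 CPM in control mice 1 to 3, and at 210, 88.5 and 82.6 CPM in CAL-101 mice 1 to 3, with CAL-101 mouse 1 set apart as the highest. The mean of 104 ± 52.6 CPM compared with 384 ± 62.4 in T-labelled and 397 ± 52.8 in CD8-labelled cells, and Cd8a was lower in 6 of 6 mice in both comparisons. On the log2 scale with a prior count of 2, the mean differences were -1.58 from T-labelled and -1.63 from CD8-labelled cells. After the T-labelled cells of each mouse were reweighted to the cluster makeup of its CD4-labelled cells, the difference was -1.36. Cd8b1 was less even, at 149 CPM against 310 in T-labelled and 262 in CD8-labelled cells. It differed by -1.15 ± 1.08 and -0.87 ± 0.88 (SD over mice) and was lower in 5 of 6 mice in both comparisons. Thinned to 1600 UMIs, 14.04% of CD4-labelled cells had a Cd8a UMI, against 41.1% of T-labelled and 47.2% of CD8-labelled cells. Neutrophils, which should lack Cd8a, stood at 7.25%; free RNA and doublets were not told apart there. Summed over mice the Cd8a level was 2.35 times that of neutrophils (1.49 to 3.61) and 0.287 times that of CD8-labelled cells (0.191 to 0.416). It was 4.89 times that of NK cells (3.31 to 6.95), but not higher by share of cells in cluster 6. There a Cd8a UMI was found in 6.52% of CD4-labelled cells and 13.8% of NK cells, at medians of 770 and 800.5 UMIs. For Cd8b1 the shares there were 13.0% and 15.5%. Whether a low Cd8a count entered the labelling cannot be told from the sources used here.

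**Figure D1:**
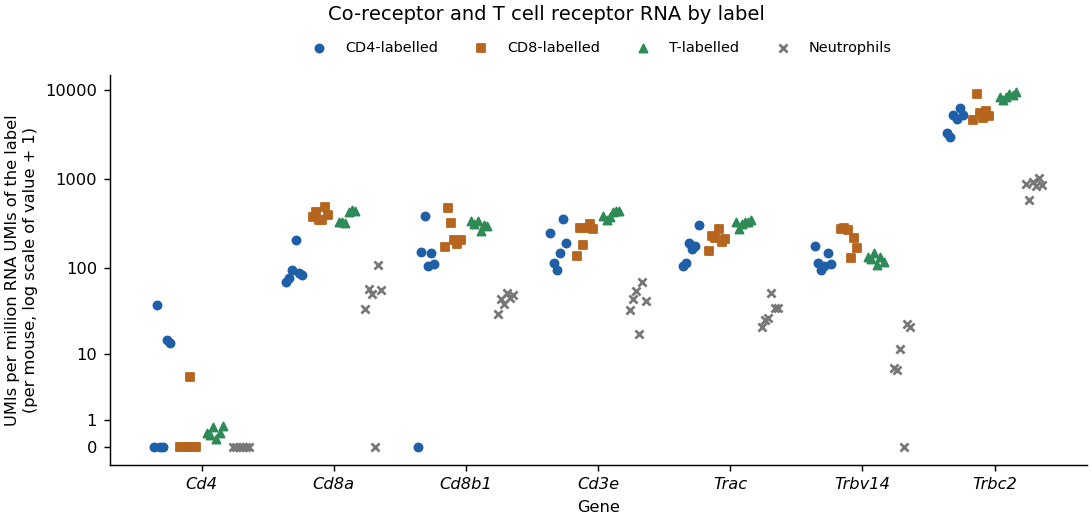
RNA levels of Cd4, Cd8a, Cd8b1, Cd3e, Trac, Trbv14 and Trbc2 in CPM (log scale of value + 1), 1 point per mouse for CD4-labelled, CD8-labelled and T-labelled cells and neutrophils. Cd4 is at 0 in 3 of 6 mice of the CD4-labelled cells, Cd8a is lower there than under both other T cell labels, and Trbv14 lies near the T-labelled level and above that of neutrophils.

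At the protein level the CD4 tag was at background and both CD8 tags were far above it. The summed CD4 tag was 0.353, 0.446 and 0.400 times the highest isotype control in control mice 1 to 3, and 0.631, 0.775 and 0.481 times in CAL-101 mice 1 to 3. No mouse reached 1. The mean ratio was 0.514 in CD4-labelled cells, 0.744 in T-labelled, 0.671 in CD8-labelled cells and 0.588 in neutrophils. The CD8a tag was 48.4, 12.4 and 40.1 times the highest isotype control in control mice 1 to 3, and 19.9, 17.6 and 12.5 times in CAL-101 mice 1 to 3. Neutrophils reached 2.12 to 8.53 times, so the groups did not overlap. The CD8b tag ran from 8.84 to 37.7 times in CD4-labelled cells and from 1.26 to 4.14 times in neutrophils. Without the 14 cells of over 5000 tags, the mean ratio of CD4 to the highest isotype was 0.590, with no mouse above 1, and that of CD8a was 41.4.

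Cell by cell, the CD4 tag lay above every isotype control in 10 of 167 cells (5.99%), and 80 cells had no CD4 tag. A CD8a or CD8b tag lay above every isotype control in 151 cells (90.4%, exact 95% interval 84.9 to 94.4%), and in 130 cells both did. This count has a high background: 54.6% of neutrophils, at a median of 2791 tags, met the same rule. With tags thinned to 500 per cell, CD8a lay above every isotype in 92.1% of CD4-labelled cells, 95.8% of T-labelled, 92.0% of CD8-labelled cells and 23.7% of neutrophils. For the CD4 tag the shares were 6.47%, 6.63%, 9% and 5.80%, so the CD4-labelled cells stood at the share of neutrophils and of the other T cell labels. In cluster 6 the CD8 count separated labels less, at 88.0% of CD4-labelled, 88.1% of T-labelled and 86.5% of CD8-labelled cells and also 79.6% of 406 cells labelled NK cells. In cluster 1 it was 94.7% of CD4-labelled, 99.3% of T-labelled and 98.4% of CD8-labelled cells.

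**Figure D2:**
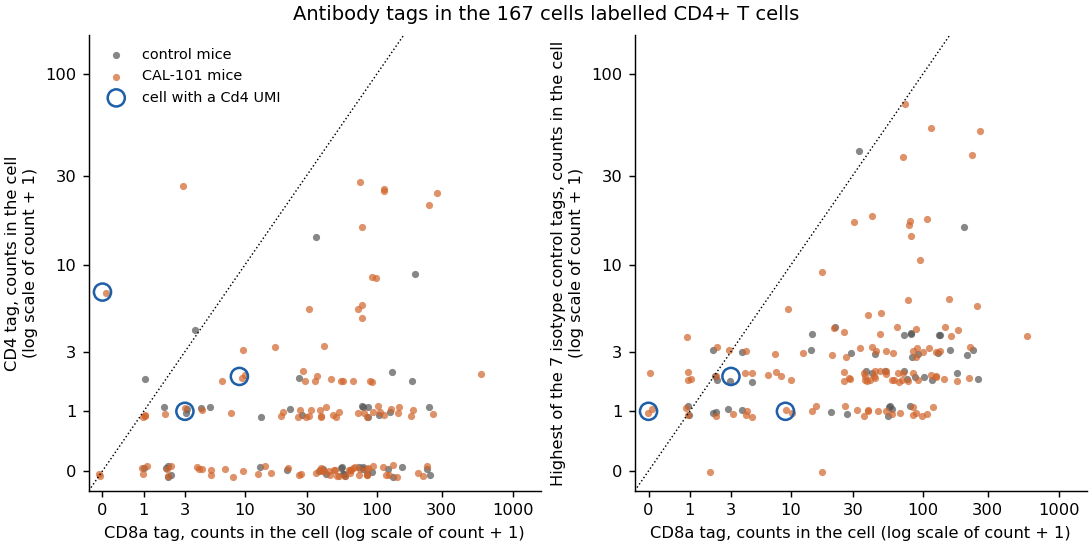
Antibody tag counts in the 167 CD4-labelled cells, CD8a tag against CD4 tag (left) and against the highest of the 7 isotype control tags (right), both axes on a log scale of count + 1 with a small random offset. Grey points are from control mice, orange points from CAL-101 mice, blue rings mark the 3 cells with a Cd4 UMI, and the dotted line marks equal counts. Most cells lie right of the line in both plots, and 80 cells have no CD4 tag.

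Few cells lacked both kinds of CD8 signal, but each kind has a background. Of neutrophils, 54.6% had a CD8 tag above the isotypes and 13.3% a Cd8a UMI. In cluster 6, 79.6% of cells labelled NK cells had such a tag. Of the 167 CD4-labelled cells, 154 had a CD8 tag above the isotypes or a Cd8a or Cd8b1 UMI. The other 13 had neither, with a median of 770 UMIs and 1.81% mitochondrial RNA. All 13 had a Cd3e, Trac or Trbc2 UMI, as did 162 of the 167 cells, and Trbc2 is a weak mark here. Single cells were then looked up after their values had been seen. In CAL-101 mouse 2, 1 cell of cluster 1 with 8236 UMIs had 26 CD4 tags against a highest isotype of 3, with 3 CD8a tags and 1 CD8b tag. It held 1 Foxp3, 4 Areg, 105 Trbc2 and 1 Trbv14 UMIs and no Cd4 UMI. A cell of cluster 5 in the same mouse, with 6521 UMIs, had 7 CD4 tags, an isotype of 1, no CD8a tag, 1 Cd4 UMI and 58 Trbc2 UMIs. The third cell with a CD4 tag above both CD8 tags, from control mouse 2, had only 507 UMIs and 2 CD4 tags. By contrast, a cell of CAL-101 mouse 1 with 24 CD4 tags also had 114 CD8a and 145 CD8b tags.

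CD90.2 is the Thy1 allele of the hosts, while the transferred cells are labelled Thy1.1. Whether the transferred cells carried CD90.2 as well was not tested, and a count above the isotypes does not by itself assign a cell to the host. The CD90.2 tag lay above every isotype control in 19 CD4-labelled cells (11.4%), against 14.2% of T-labelled cells, 7.71% of CD8-labelled cells and 78.2% of NK cells. In 12 CD4-labelled cells it also exceeded the CD8a tag. Among these, 1 cell of CAL-101 mouse 1 with 7286 UMIs had 73 CD90.2 and 41 CD25 tags with 10 CD8a tags, and held 40 Csf2, 21 Areg, 4 Gata3, 2 Il13 and 2 Il5 UMIs. Another cell of that mouse, with 3086 UMIs, held 18 UMIs of Il1rl1, the IL-33 receptor. Csf2, Areg, Il13 and Il5 are products of type 2 innate lymphoid cells and of activated T cells. The summed Th2 and ILC2 list varied widely among mice, at 1196, 153 and 0 CPM in control mice 1 to 3 and 1828, 870 and 110 CPM in CAL-101 mice 1 to 3. Its T-labelled mean was 210 ± 73.4 CPM.

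**Figure D3:**
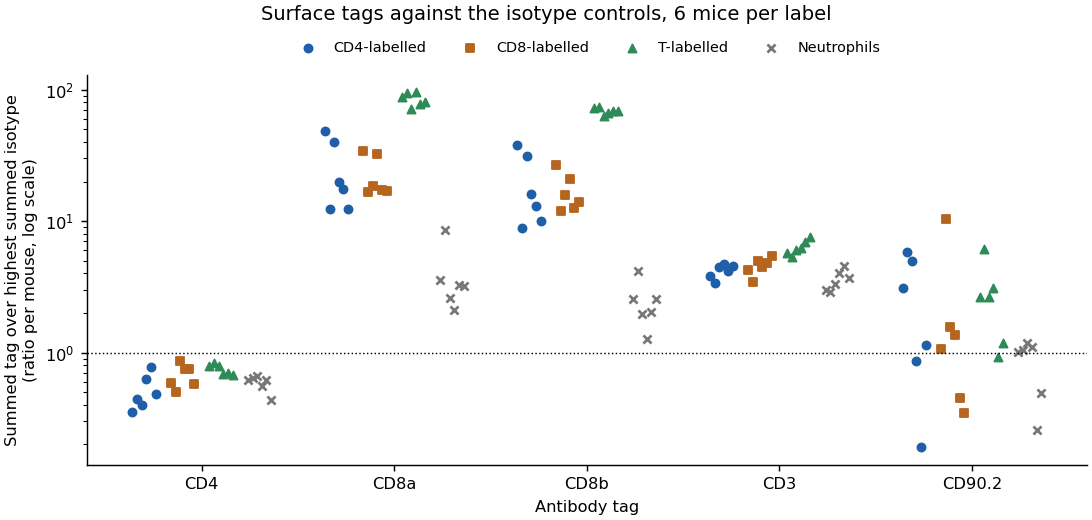
Summed tag counts of CD4, CD8a, CD8b, CD3 and CD90.2 divided by the highest summed isotype control (log scale), 1 point per mouse for CD4-labelled, CD8-labelled and T-labelled cells and neutrophils, with a dotted line at a ratio of 1. The CD4 tag is below 1 under every label shown, and the CD8a tag of the CD4-labelled cells lies at 12.4 to 48.4, beside the CD8-labelled cells, below the T-labelled cells and above neutrophils.

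All 102 antibodies were then compared between the labels within mice. Tags were summed per mouse and label and tested with edgeR's quasi-likelihood test with mouse as a term, and p-values were adjusted over the 102 antibodies with the Benjamini-Hochberg method. Against T-labelled cells 57 antibodies passed an adjusted p of 0.05 (55.9% of those tested), 28 lower (27.5%) and 29 higher (28.4%) in CD4-labelled cells. Among the 8 largest falls were both CD8 chains: CD8a fell by 1.43 on the log2 scale (SE 0.293, adjusted p = 0.0114), from 6.62 ± 0.653% of tags in T-labelled to 3.60 ± 1.11% in CD4-labelled cells. CD8b fell by 1.52 (SE 0.285, adjusted p = 0.0114), and both were lower in 6 of 6 mice. The others were CD49b (an integrin of NK and activated T cells), CD27 (a costimulatory receptor), CD11a, CD44 (an activation marker), CD48 and CD61, which fell by 1.15 to 1.56. The CD4 tag did not pass, with a difference of 0.04 (SE 0.213, adjusted p = 0.879). The fitted differences use TMM scaling over the 102 antibodies, so they need not equal the ratio of the percentages.

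Among the other antibodies of T and NK cells, TCR.Bchain, on the receptor beta chain, fell by 0.68 (adjusted p = 0.0114), although its share of tags was higher in 3 of 6 mice, and CD25, the IL-2 receptor alpha chain, fell by 1.06 (adjusted p = 0.0114). CD127, the IL-7 receptor, rose by 0.49 (adjusted p = 0.0114, higher in 6 of 6 mice). With tags scaled to the summed isotype controls, the same test gave CD127 a difference of 0.13 (adjusted p = 0.251). Against T-labelled cells reweighted to the same clusters, TCR.Bchain, CD25 and CD127 did not pass. CD3 (-0.04, adjusted p = 0.858), CD90.2 (0.09, adjusted p = 0.868) and NK.1.1 (0.04, adjusted p = 0.820) did not pass.

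The largest rises among the antibodies that passed were mostly in proteins of other lineages. CD20 and IgD of B cells, CD170 (Siglec-F of eosinophils), CD300LG, XCR1 of dendritic cells, CD172a of myeloid cells and CD182 of neutrophils were among the 8 largest, together with CD183 (CXCR3, which T cells carry), with log2 differences of 0.64 to 0.99. CD20, at 0.99, turned to -0.34 when T-labelled cells were reweighted to the same clusters. The isotype controls moved with them: 3 of 7, MOPC.21, RTK2071 and RTK4530, were higher in CD4-labelled cells by 0.28 to 0.49 with an adjusted p of 0.0151 to 0.0399, and all 7 had a positive difference. With tags scaled to the summed isotype controls, 3 antibodies were higher (CD170, CD300LG and CD183) and 33 lower, and the median over the 102 antibodies moved from 0.07 to -0.29.

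The difference from T-labelled cells changed with the clusters compared. When T-labelled cells were reweighted to the cluster makeup of the CD4-labelled cells, edgeR called 0 antibodies (9 at an unadjusted p under 0.05), and CD8a differed by -0.43 (adjusted p = 0.624). In clusters 1 to 5 alone, 6 antibodies passed, all lower: CD8a, CD8b, CD11a, CD366, CD223 and CD45R_B220. Summed mitochondrial RNA, which was 23.9% in CD4-labelled and 4.69% in T-labelled cells, stood at 18.6% in the reweighted T-labelled cells. Its part in the tag differences was not tested.

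**Figure D4:**
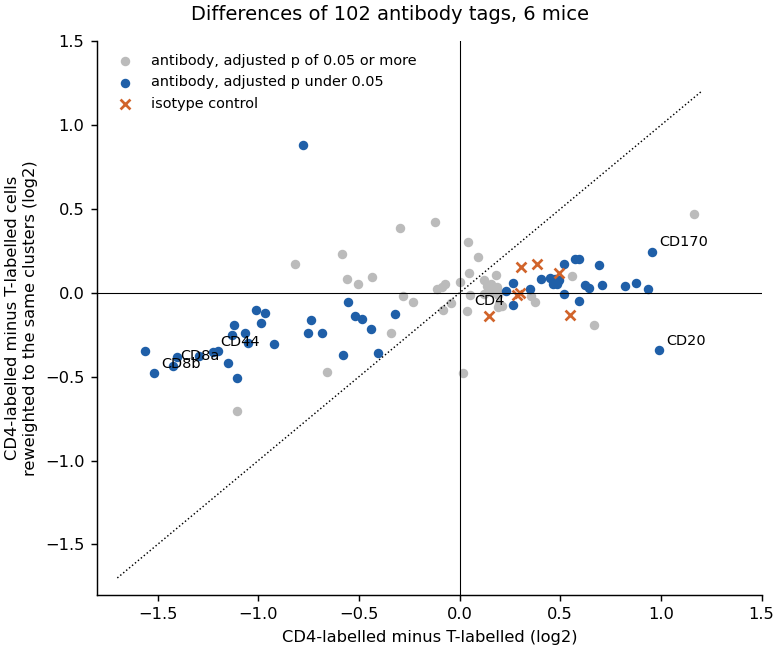
Log2 difference of each of the 102 antibody tags between CD4-labelled and T-labelled cells over 6 mice (horizontal) and between CD4-labelled cells and T-labelled cells reweighted to the same clusters (vertical), with equal values on the dotted line. Blue points passed an adjusted p of 0.05 on the horizontal axis, where CD8a lies at -1.43, and crosses are isotype controls; no point passed on the vertical axis, where CD8a lies at -0.43.

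Against CD8-labelled cells no tag passed the main test. edgeR's quasi-likelihood test called 0 of 102 antibodies (0% of those tested), with 3 at an unadjusted p under 0.05, and DESeq2 called 1. In the edgeR test CD8a differed by 0.05 (SE 0.232, adjusted p = 0.919), CD8b by 0.08 (SE 0.198, adjusted p = 0.899) and CD4 by -0.30 (SE 0.176, adjusted p = 0.879). CD274 was higher in 6 of 6 mice, by 0.43 (SE 0.158, adjusted p = 0.879). Without the cells of over 5000 tags 3 antibodies passed, namely CD183, CD199 and CD357. With 12 to 42 CD4-labelled cells per mouse, smaller differences were not detectable.

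RNA was compared with the CD8-labelled cells next, as a description. Of 6257 genes with a mean of at least 20 CPM in either label, 97 were higher (1.55%) and 116 lower (1.85%) in CD4-labelled than in CD8-labelled cells in all 6 mice. Both shares lie near what 6 mice would give if either sign were equally likely in each. The genes named below are therefore a ranking and not calls. The largest falls, as mean log2 differences with their SD over mice, were Cd8a (-1.63 ± 0.53), the chemokine gene Ccl4 (-1.62 ± 0.67), Ybx3 (-1.60 ± 0.97), the cytotoxic cell protease Ctsw (-1.37 ± 0.55), the NK receptor genes Klrk1 (-1.35 ± 1.07) and Klrd1 (-1.33 ± 0.59) and Ifng (-1.11 ± 0.28). Hcls1, Rae1 and Timm8a1 completed the 10. Granzymes did not keep 1 sign: Gzma differed by -0.19 ± 0.48 and Gzmb by -0.64 ± 0.85, each higher in 2 of 6 mice. The largest rises were Smad3 (1.42 ± 0.50), Tnfrsf18, the gene of the GITR receptor (1.37 ± 0.88), Tnfaip8, Ptpn13, and Lef1, a factor of naive and memory T cells (1.26 ± 0.60), followed by Birc3, Aff1, Il12rb2, Satb1 and Gramd3. These rest on few molecules: 42.2% of the 64 Lef1 UMIs came from 1 cell.

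Against T-labelled cells, 55 of 6636 genes were higher (0.829%) and 897 lower (13.5%) in all 6 mice, around a median of -0.26 over all of them. The share of RNA UMIs from genes not encoded in the mitochondria differed by -0.33 on the log2 scale (-0.55 to -0.21 by mouse). This shift enters the CPM difference of each such gene. Against reweighted T-labelled cells the shift was -0.10. Its part in the falls was not tested. Ybx3 (-2.19 ± 0.75), Ccl4, Ctsw (-1.88 ± 0.46), Klrd1, Gzmb (-1.76 ± 0.68), Klrk1, Ifng, Klrc1, Thy1 (-1.60 ± 0.75) and Cd8a led the falls. The rises were led by AY036118 (1.84 ± 0.24), Camk1d, Ptpn13, Lars2, Aff3, Aff1, Cmss1, Zc3h12d, the nuclear RNA Malat1 (0.99 ± 0.43) and Kmt2d. Reweighting the T-labelled cells to the same clusters took AY036118 from 1.84 to 0.44 and Malat1 from 0.99 to 0.12, and turned Lars2 and Cmss1 to -0.20 and -0.18. Among the falls, Gzmb went from -1.76 to -0.82 and Ifng from -1.63 to -1.07, while Ctsw stood at -1.85, Klrd1 at -1.74 and Klrk1 at -1.68.

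The 17 genes of the cytotoxic effector list summed to 2083 ± 1443 CPM in CD4-labelled, 3087 ± 2215 in CD8-labelled and 4902 ± 2429 in T-labelled cells. The 12 genes of the naive and memory list summed to 3643 ± 374, 2172 ± 505 and 2599 ± 208 CPM. Within it Tcf7, a factor of stem-like T cells, was higher than in T-labelled cells in 6 of 6 mice, by 0.74 ± 0.38 on the log2 scale and by 0.56 ± 0.33 after reweighting. Ccr7 and Il7r were not higher in all mice. Runx3 stood at 212 ± 137 CPM against 392 ± 59.2 in T-labelled cells, lower in 5 of 6 mice. Its level in CD8-labelled cells was similar, at 219 CPM (difference -0.23 ± 1.11, CD4-labelled lower in 4 of 6 mice). Gzma stood at 273 ± 207 against 663 ± 539 CPM in T-labelled cells, lower in 6 of 6. Reweighted, the Gzma difference went from -1.04 to -0.21, lower in 4 of 6. Gata3, the factor of type 2 cells, stood at 67.4 ± 37.5 against 44.7 ± 7.90 CPM, and Cd74, of antigen-presenting cells, at 134 ± 108 against 80.6 ± 64.2 CPM, each higher in 5 of 6 mice. Against reweighted cells Cd74 was higher in 2 of 6. Lists for other lineages mostly rested on few cells. The 13 NK genes summed to 162 to 268 CPM, below the T-labelled range of 357 to 747, with Ncr1 at 0. The 5 red cell genes were at 0, and 1 of 9 neutrophil genes had a UMI. Melanoma genes stood at 76.5 CPM in control mouse 2, 191 CPM in control mouse 3 and 324 CPM in CAL-101 mouse 2, in 9 cells, and at 0 in the other mice. Their T-labelled mean was 9.38 ± 2.46 CPM, and 84.7 ± 103 CPM after reweighting. Gamma delta T cell genes summed to 48.8 ± 40.7 CPM, against 94.6 ± 40.7 in T-labelled cells.

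The label was given more often in CAL-101 mice. CD4-labelled cells made up 0.302, 0.413 and 0.185% of the T class in control mice 1 to 3 (18, 17 and 12 cells), and 0.902, 0.643 and 0.727% in CAL-101 mice 1 to 3 (36, 42 and 42 cells). Every CAL-101 mouse lay above every control mouse. The means were 0.300 ± 0.114% and 0.757 ± 0.132% (SD, n = 3 each), and an exact permutation test (2-sided, 20 ways to assign the mice) gave p = 0.1, the smallest it can give (0.143 adjusted over 10 such comparisons). P-values here measure the spread between single mice of 1 experiment.

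The CD8 label and cluster 6 moved with this share. CD8-labelled cells were 0.914 ± 0.165% of T class cells in control against 2.23 ± 0.448% in CAL-101 mice, and cluster 6 was 4.10 ± 0.736% against 6.45 ± 0.556%, neither with overlap (exact p = 0.1 for both). Of the CD4- and CD8-labelled cells together, 24.9 ± 9.24% were CD4-labelled in control and 25.4 ± 1.53% in CAL-101 mice (exact p = 1). Cells under 2000 UMIs were 11.0 ± 1.63% of T class cells in control against 12.4 ± 0.651% in CAL-101 mice, where the groups overlapped (exact p = 0.3). Among such cells the CD4-labelled share was 2.35 ± 1.09% and 4.53 ± 0.526%, without overlap (exact p = 0.1). Within cluster 6 the CD4-labelled share was 3.83 ± 1.26% and 6.45 ± 0.774% (exact p = 0.1). Without cells of over 20% mitochondrial RNA or under 1000 UMIs it was 0.0885 ± 0.0729% and 0.260 ± 0.133% of the T class, where the groups overlapped (exact p = 0.2). The part of depth in the difference was not tested beyond these values.

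**Figure D5:**
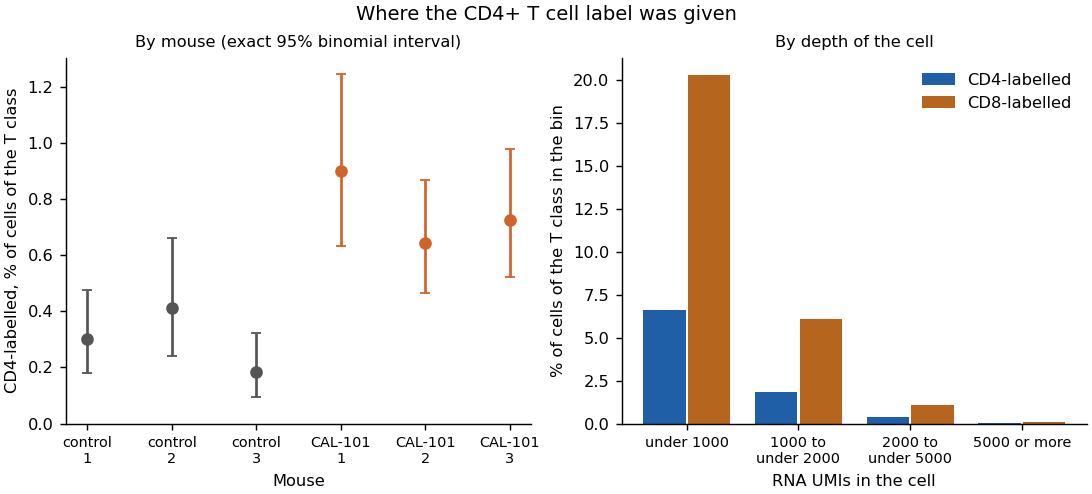
Left, CD4-labelled cells as a percentage of the T class in each mouse with exact 95% binomial intervals (grey control, orange CAL-101). Right, CD4-labelled and CD8-labelled cells as a percentage of the T class in 4 bins of RNA UMIs per cell over all mice. The 3 CAL-101 mice lie at 0.643 to 0.902% above control mice at 0.185 to 0.413%, and both labels are most frequent under 1000 UMIs.

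Within the CD4-labelled cells, CAL-101 and control mice were compared over the summed RNA of 12 to 42 cells per mouse. Of 620 genes with enough counts, edgeR's quasi-likelihood test called 0 (0% of those tested), with 35 at an unadjusted p under 0.05, and DESeq2 called 0. In 71 genes (11.5%) the 3 values of one group lay all above those of the other. The 5 genes with the smallest p included 3 granzymes, proteases of cytotoxic granules from a family of related genes that can share reads. Gzmc stood at 387, 956 and 762 CPM in control mice 1 to 3 and at 89.9, 280 and 124 CPM in CAL-101 mice 1 to 3. Gzma stood at 422, 459 and 476 CPM in control and at 210, 29.5 and 41.3 CPM in CAL-101 mice, and Gzmb at 422, 497 and 1143 against 240, 206 and 124 CPM. All CAL-101 mice lay below all control mice for these genes. The fitted log2 differences were -2.19 (SE 0.506, adjusted p = 0.228) for Gzmc, -2.33 (SE 0.623, adjusted p = 0.234) for Gzma and -1.77 (SE 0.469, adjusted p = 0.234) for Gzmb.

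Airn, a long noncoding RNA, stood at 387, 229 and 476 CPM in control and at 105, 44.2 and 41.3 CPM in CAL-101 mice, a difference of -2.48 (SE 0.604, adjusted p = 0.228). It lies antisense to Igf2r, and whether the counting used strand is not stated. Tox, a factor of exhausted T cells, stood at 141, 153 and 286 CPM in control and at 884, 487 and 565 CPM in CAL-101 mice, a difference of 1.80 (SE 0.491, adjusted p = 0.234). None of these 5 passed the threshold. Without CAL-101 mouse 1, 1 gene passed, Gzma (adjusted p = 0.0409). Summed cytotoxic effector genes were 2357, 3021 and 4382 CPM in control mice and 1004, 1032 and 702 CPM in CAL-101 mice. In T-labelled cells the same sums were 8042, 5666 and 7289 CPM in control and 2548, 3133 and 2736 CPM in CAL-101 mice. Of the 17 genes in that list 3 were tested and 0 called, of 14 receptor complex genes 7 were tested and 0 called, and of 9 CD4 lineage genes only Tox was tested. The median difference over the 620 genes was 0.03.

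The response was also compared with that of the T-labelled cells of the same mice. limma, fitted to the per-mouse difference between the labels, called 0 of 620 genes (0% of those tested), with 16 at an unadjusted p under 0.05. The same T-labelled cells and mice enter both responses, so their likeness was not scored. A p that misses the threshold does not show that the labels responded alike.

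Of 102 antibodies, 2 passed between CAL-101 and control mice (1.96% of those tested), and both were lower with CAL-101. CD61 (integrin beta-3) made up 1.89, 1.44 and 1.97% of tags in control mice 1 to 3 and 0.605, 0.710 and 0.501% in CAL-101 mice 1 to 3, a log2 difference of -2.14 (SE 0.346, adjusted p = 0.0441). CD274 (PD-L1, the ligand of PD-1) made up 0.735, 1.00 and 0.612% against 0.516, 0.497 and 0.483%, a difference of -1.18 (SE 0.167, adjusted p = 0.0441). All CAL-101 mice lay below all control mice for both, as did one group against the other for 42 of the 102 antibodies (41.2%). The CD4 tag was 0.0397, 0.0856 and 0.0413% of tags in control and 0.113, 0.151 and 0.102% in CAL-101 mice (log2 difference 0.63, SE 0.273, adjusted p = 0.239). Of the 14 cells with over 5000 tags, 12 were from CAL-101 mice, and without these 14 cells no antibody passed (18 at an unadjusted p under 0.05). CD61 then differed by -1.24 (adjusted p = 0.140) and CD274 by -0.62 (adjusted p = 0.278). Both calls were also lost in clusters 1 to 5 and without control mouse 1 or 3 or any 1 CAL-101 mouse, while 28 antibodies passed without control mouse 2.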

How the data were processed

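The members, gene lists and tests were chosen with earlier results of these data known. The matrices the authors deposited hold UMI counts per cell for 32285 genes and 102 antibodies, not normalized; the file headers name Cell Ranger 7.1.0, and the submitters' processing notes name mm10 and Seurat. Labels and clusters, which the authors deposited as other, non-numeric columns, were taken as given; the sources used here do not give how cells were filtered, clustered, labelled or cleared of doublets, and no doublet caller was run. Each mouse has an RNA and a tag record, which were used as 1 replicate. Replicates of 1 group differed by more than sampling noise (chi-square per degree of freedom 13.1 to 61.8).

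Counts were summed per mouse and label. Tests were edgeR 4.0.16 quasi-likelihood (TMM; filterByExpr for genes, a total of at least 10 for antibodies), limma 3.58.1 for the difference of responses, with DESeq2 1.42.0 as an alternative, in R 4.3.3, at a Benjamini-Hochberg adjusted p of 0.05. Mouse was a term between labels. Shares used an exact permutation test over the 6 mice. Thinning and shares used scipy 1.17.1, numpy 2.4.6 and pandas 2.3.3 in Python 3.11.15, and plots matplotlib 3.10.9. The scripts' tests were checked on simulated counts. Named genes were a fixed panel, the 10 largest differences each way between labels with at least 20 CPM and 1 sign in 6 mice (without ribosomal, mitochondrial, Gm and Rik entries), the 8 largest called antibodies each way, and, where fewer than 3 genes were called, the 5 smallest p; up to 4 members of a list could be added. A few items of the panel are not reported here. RefSeq coordinates are from GRCm38.p6, the assembly mm10 is built on. Of the gene identifiers, 32158 matched the mouse name table. Alternatives were other normalizations, filters, clusters and the omission of each mouse.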

Additional observations from a re-analysis of the deposited data

Results flagged for a closer look

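Fcer1g, the signalling chain of Fc receptors, was higher in CD4-labelled than in CD8-labelled cells in all 3 control mice (mean log2 difference 0.75) and lower in all 3 CAL-101 mice (-0.17). It rests on 9 UMIs in CD4-labelled cells and was picked out because its sign differed between the groups of mice. With many genes compared, some such switches can arise from sampling alone. The difference between the groups of mice was not tested.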

How the results depend on the processing

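The share of the T class kept its direction in every alternative run, with a difference between CAL-101 and control of 0.457 percentage points (0.385 to 0.514 with each mouse left out; 0.206 in clusters 1 to 5). Replicate numbers did not pair the mice: over all cells, same-numbered mice had correlations of -0.580, -0.515 and -0.110, and not every mouse correlated best with its own number. With the replicate block the share gave p = 0.25 by an exact sign-flip permutation test, the smallest that test can give here. With the same block, antibodies under CAL-101 fell from 2 calls to 0, and genes and the difference of responses stayed at 0. Between labels, where mouse is the block, leaving it out gave 47 antibodies against T-labelled and 0 against CD8-labelled cells.

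Against T-labelled cells the 57 calls became 36 with isotype scaling, 6 in clusters 1 to 5, 37 without cells of over 5000 tags, 0 with reweighting and 24 to 63 with each mouse left out (24 without CAL-101 mouse 1, 27 without control mouse 2). Against CD8-labelled cells DESeq2 gave 1 call, the omission of cells of over 5000 tags 3, and each mouse left out 0. Antibodies under CAL-101 gave 10 with DESeq2, 0 with RLE normalization, 0 in clusters 1 to 5, 0 without cells of over 5000 tags and 0 to 28 with each mouse left out. Genes under CAL-101 gave 10 with no filter (11120 genes) and 0 to 1 with each mouse left out. The difference of responses gave 0 to 1, with 1 without control mouse 2. Clusters 1 to 5 used 5 mice under CAL-101, since control mouse 3 had under 5 such cells. The cause of these changes was not tested. The 5000-tag limit, the share of CD4- and CD8-labelled cells, cluster 6 alone and cells under 2000 UMIs were chosen after seeing the data.

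Some single tags changed sign, none of which passed in the setting where it did. Against T-labelled cells CD4 was -0.052 with DESeq2, -0.36 with isotype scaling, -0.11 with reweighting and -0.12 to 0.21 with each mouse left out. CD90.2 was -0.048 with DESeq2, -0.28 with isotype scaling, -0.034 without cells of over 5000 tags and -0.070 to 0.39 with each mouse left out. CD20 was -0.021 in clusters 1 to 5 and -0.34 with reweighting. Against CD8-labelled cells CD8a was -0.32 and CD8b -0.14 in clusters 1 to 5, and -0.11 to 0.19 and -0.052 to 0.18 with each mouse left out. Under CAL-101, CD8a was 0.0029 and CD8b 0.10 without cells of over 5000 tags, and CD8b was 0.0051 in clusters 1 to 5. Depth limits the gene tests, with 10497 to 72605 RNA UMIs per mouse.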
